A study of Mus musculus with 6 samples.

Results

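The vascular endothelial growth factor (VEGF) system was examined here through 10 genes: the ligands *Vegfa*, *Vegfb*, *Vegfc*, *Vegfd* and *Pgf*, the receptors *Flt1*, *Kdr* and *Flt4*, and the co-receptors *Nrp1* and *Nrp2*. They were taken by gene name from tables of 55401 genes, and all 10 were found there and passed the filter on low counts. RNA had been sequenced from LYVE-1+/podoplanin+/CD31+/CD45- cells of the dura mater, the gate for lymphatic endothelial cells (LECs), which form the wall of lymphatic vessels. The wild-type mice, young C57BL/6J males per the methods, had received an adeno-associated virus (AAV) into the cisterna magna. In the AAV-VEGF-C group the virus encoded full-length mouse VEGF-C. In the AAV-CTRL group, labelled AAV-Control, it encoded a soluble VEGFR-3 fragment fused to an immunoglobulin tail, which does not bind VEGF-C. Each group had 3 libraries, 1 from each of 3 repeats of the experiment, and each library held RNA from 10 to 12 pooled meninges. Libraries are named by group and experiment, as in AAV-CTRL 1 and AAV-VEGF-C 1.

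VEGF ligands are secreted dimers that bring receptor tyrosine kinases together on the endothelial surface. VEGF-A binds VEGFR-1 and VEGFR-2 and drives the growth and leakiness of blood vessels, while VEGF-C and VEGF-D bind VEGFR-3 and, once processed, VEGFR-2, and drive the growth of lymphatic vessels. Neuropilins have no kinase and present ligands to the receptors. VEGFR-3 and neuropilin-2 are prominent in lymphatic endothelium, VEGFR-1 and neuropilin-1 in blood endothelium, and VEGFR-2 in both.

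The comparison asked which of these genes differed in LECs of mice that had been given VEGF-C. None of the 10 passed the test. In edgeR's quasi-likelihood test, 0 of 10 had an adjusted p under 0.05, where 11.2% of the 17459 genes tested were called (10.5% higher and 0.659% lower), or 3.14% of those with a mean TPM of 5 or more. At an unadjusted p under 0.05 it was 0 of 10, where 28.1% of all tested genes passed. In an edgeR fit limited to a mean TPM of 5 or more it was 0 of 9, where 1009 of 7563 genes passed. DESeq2 called 0 of 10 as well, where it called 21.1% of genes, with 0 at an unadjusted p under 0.05. On the scale of TPM, a transcript abundance corrected for gene length and library total, limma on log2(TPM + 1) called 0 of 10, where it called 8.86% of genes. It gave 6 of 10 an unadjusted p under 0.05, where 40.0% of all tested genes had one. The share among genes with a mean TPM of 5 or more, a level that 9 of the 10 reach, was not computed. At that level the median limma difference was -1.31, beside -1.26 for the 10 genes. Among the AAV-CTRL libraries, the highest TPM of *Flt1* was 69.8 times its lowest. For the other VEGF genes that ratio ran from 1.49 (*Pgf*) to 6.73 (*Vegfd*), with 5.27 for *Kdr*. These ratios were not set beside those of all tested genes.

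The libraries differed in ways that touch all 10 genes. Totals ran from 6530269 to 12399498 counts in AAV-CTRL, against 564475 to 3261935 in AAV-VEGF-C, so depth and treatment cannot be told apart. The 1935 genes of silent families, mainly olfactory and vomeronasal receptors, took 159 to 293 CPM (counts as a scaled share of the library total) in the AAV-CTRL libraries and 2884 to 7053 in the AAV-VEGF-C libraries. All 12 lymphatic markers had counts, with a summed level of 513 to 623 TPM in AAV-CTRL, against 174 to 360 in AAV-VEGF-C. The lymphatic regulator *Prox1* ran from 3.15 to 14.1 TPM, and the 12 fibroblast markers summed to more than the lymphatic ones in every library (1999 to 4638 TPM in the AAV-CTRL libraries and 438 to 1495 TPM in the AAV-VEGF-C libraries). The 12 macrophage markers stood at 24.97 and 22.8 TPM in AAV-CTRL 1 and AAV-VEGF-C 1 and at 699 to 2324 in the other 4 libraries. The 12 leukocyte markers summed to 3.89 and 9.12 TPM in experiment 1 and to 127 to 277 in the others. That sum was carried by *Laptm5*, *Tyrobp*, *Ptprc* and *S100a9*, while the T-cell marker *Cd3d* was highest in AAV-VEGF-C 1 (5.39 TPM, and 0.509 to 1.20 in the others). The 12 mural markers summed to 173 to 439 TPM in AAV-CTRL, against 22.6 to 143 in AAV-VEGF-C, and the 10 osteoblast markers to 144 to 471 and 36.1 to 197. The part of depth, silent-family reads and other cells in the results below was not tested. In bulk RNA, fewer cells of a type and less RNA per cell cannot be told apart.

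The levels of the 10 genes ran from 0.300 TPM (*Vegfd* in AAV-CTRL 2) to 106 TPM (*Flt1* in AAV-CTRL 3), a scale corrected for gene length. In AAV-CTRL the order of mean TPM was *Nrp1*, *Nrp2*, *Flt1*, *Kdr*, *Vegfa*, *Flt4*, *Pgf*, *Vegfb*, *Vegfc* and *Vegfd*. Between neighbours in that order the library values overlapped, except from *Flt4* to *Pgf* and from *Vegfc* to *Vegfd*. In AAV-VEGF-C the order was *Nrp2*, *Nrp1*, *Flt4*, *Flt1*, *Vegfa*, *Kdr*, *Pgf*, *Vegfb*, *Vegfc* and *Vegfd*, and the neighbours that did not overlap were *Kdr* over *Pgf* and *Vegfc* over *Vegfd*. In both groups the neuropilins thus led in mean level and the VEGFR-3 ligands came last.

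**Figure D1:**
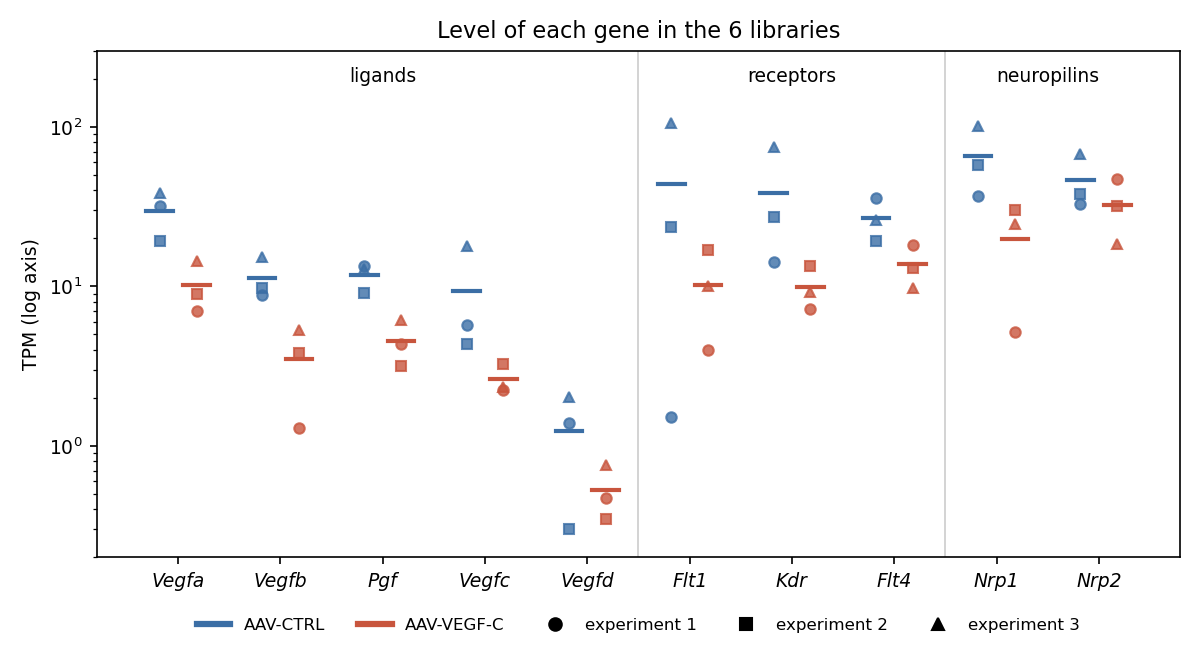
TPM on a log axis of the 10 genes in the 6 libraries, with AAV-CTRL in blue, AAV-VEGF-C in red, the experiment as the marker shape and group means as bars. The AAV-VEGF-C points lie below all AAV-CTRL points for 7 genes, and *Vegfd*, *Flt1* and *Nrp2* overlap.

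In TPM, for 7 of the 10 genes all AAV-VEGF-C libraries lay below all AAV-CTRL libraries. The same held for 36.4% of all tested genes and for 61.4% of the 7234 tested genes with a mean TPM of 5 or more, a level that 9 of the 10 genes reach. When counts were scaled by TMM factors, as in the edgeR test, 1 of the 10 was lower without overlap (*Vegfb*), against 17.6% of all tested genes and 33.3% at that level. The median log2 fold change of the 10 genes was -0.37, beside -0.41 for tested genes with a mean TPM of 5 or more and -0.00 for all tested genes. Under limma on log2(TPM + 1) the medians were -1.26 for the 10 genes and -1.31 for genes at that level. Lower TPM was therefore general among genes of this abundance, and the median of the VEGF genes lay near that of these genes.

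Among the ligands, *Vegfa* (chromosome 17, 46016993 to 46032369 of GRCm38, minus strand), which encodes the main angiogenic factor, was the most abundant in each library. It stood at 31.8, 19.2 and 38.7 TPM in AAV-CTRL 1, 2 and 3, and at 7.03, 8.99 and 14.4 TPM in AAV-VEGF-C 1, 2 and 3. The TPM ranges did not overlap, yet the counts scaled to the library total, 118, 53.7 and 74.9 CPM against 69.1, 66.9 and 73.0 CPM, lay in 1 range. In the edgeR fit it had a value of -0.09 on the log2 scale (SE 0.37, edgeR adjusted p 0.913). Its sign turned in 5 of 16 other fits. *Vegfa* made up 44.7% to 51.9% of the summed ligand TPM in AAV-CTRL, against 45.7% to 49.7% in AAV-VEGF-C.

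*Vegfb* (chromosome 19, 6982473 to 6987651, minus strand) encodes a ligand of VEGFR-1 that is linked to metabolism in endothelium. It stood at 8.81, 9.73 and 15.2 TPM in AAV-CTRL, against 1.30, 3.82 and 5.32 TPM in AAV-VEGF-C. It was the one gene lower without overlap on both scales, with TMM-scaled values of 29.5, 27.2 and 21.7 CPM against 11.6, 17.9 and 19.8 CPM. Its edgeR estimate was -0.61 on the log2 scale (SE 0.32, adjusted p 0.253) and stayed negative in all 16 other fits, from -1.83 to -0.27. The AAV-VEGF-C 1 value rested on 5 counts, or 8.86 CPM with a 95% Wilson interval of 3.78 to 20.7. Intervals here cover counting error only. With every library drawn down to the smallest total, the counts were 18, 18 and 23 in AAV-CTRL, against 5, 14 and 15 in AAV-VEGF-C.

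*Pgf* (chromosome 12, 85166635 to 85177790, minus strand) encodes placental growth factor, a second ligand that, of the 3 receptors, binds VEGFR-1 alone. It was at 13.4, 9.04 and 12.8 TPM in AAV-CTRL, against 4.33, 3.17 and 6.17 TPM in AAV-VEGF-C. These ranges did not overlap, and the fold between group means was 2.58. On the count scale the difference was smaller, with -0.43 as the log2 fold change (SE 0.42, edgeR adjusted p 0.548), which was negative in all 16 other fits. It ran from -0.77 without AAV-VEGF-C 1 to -0.21 without AAV-CTRL 1, and was -0.068 when scaled on the 2000 most abundant genes.

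*Vegfc* (chromosome 8, 54077606 to 54187096, plus strand), the main growth factor of lymphatic vessels and the gene carried by the AAV-VEGF-C vector, did not pass the test in the cells of treated mice. It stood at 5.74, 4.38 and 17.8 TPM in AAV-CTRL, on 90, 68 and 310 counts. In AAV-VEGF-C it stood at 2.24, 3.26 and 2.35 TPM, on 10, 9 and 35 counts. AAV-CTRL 3 was the high library in TPM, and the treated libraries lay close together on that scale. Scaled by TMM factors they did not, at 23.1, 6.45 and 10.1 CPM against 14.5, 8.65 and 21.0 CPM in AAV-CTRL 1, 2 and 3, and the groups overlapped. Its log2 fold change was -0.32 (SE 0.55, edgeR adjusted p 0.757). Leaving out 1 library moved it from -0.86 (without AAV-VEGF-C 1) to -0.077 (without AAV-VEGF-C 2), with -0.62 without AAV-CTRL 2 and -0.081 without AAV-CTRL 3. It turned to 0.044 when scaled on the 2000 most abundant genes and to 0.069 after filtering at a mean TPM of 5 or more. The vector sequence was not analysed here, so reads from the vector and from the gene itself cannot be told apart, and *Vegfc* gave no check of the labels.

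*Vegfd* (chromosome X, 164373378 to 164402650, plus strand), which encodes the second VEGFR-3 ligand, was the least abundant gene. Its counts were 18, 7 and 46 in AAV-CTRL, against 2, 1 and 10 in AAV-VEGF-C, or 1.40, 0.300 and 2.02 TPM and 0.474, 0.346 and 0.762 TPM. The groups overlapped. In AAV-VEGF-C 1 and 2 the counts lay under the floor of 3 counts, which is 5.31 and 2.09 CPM at their depths, so a difference in *Vegfd* was not detectable at this depth. Its log2 fold change was 0.07 (SE 0.82, edgeR adjusted p 0.973), with the other sign in 7 of 14 other fits.

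Shares within a library do not depend on scaling between libraries. *Vegfc* made up 9.39%, 10.3% and 20.6% of the summed TPM of the 5 ligands in AAV-CTRL 1, 2 and 3, and 14.6%, 16.6% and 8.10% in AAV-VEGF-C 1, 2 and 3. The means differed by -0.314 percentage points (two-sided exact permutation p = 1), and the difference within experiments was positive in experiments 1 and 2 (5.19 and 6.35) and negative in experiment 3 (-12.5). *Vegfc* and *Vegfd* together gave a difference of 0.402 percentage points (exact permutation p = 1). In 3 libraries against 3, p cannot go below 0.1.

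Among the receptors, *Flt1* and *Kdr* spread widely between experiments. *Flt1* (chromosome 5, 147561604 to 147726011, minus strand), which encodes VEGFR-1, a receptor with strong binding and weak kinase activity that is high in blood endothelium, stood at 1.52, 23.7 and 106 TPM in AAV-CTRL. It stood at 3.97, 16.8 and 10.0 TPM in AAV-VEGF-C. The groups overlapped, and both libraries of experiment 1 were the lowest of their group. The counts behind these values were 84, 1692 and 8960 against 32, 282 and 348. AAV-CTRL 1, with 6530269 counts, was the shallowest of the AAV-CTRL libraries. Drawn down to the smallest total, the counts were 8, 132 and 391 in AAV-CTRL, against 32, 108 and 62 in AAV-VEGF-C.

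The log2 fold change of *Flt1* was -1.14 (SE 1.0, edgeR adjusted p 0.516). Within experiments the log2 ratio of TPM was 1.38, -0.50 and -3.40, so treated libraries were lower in 2 of 3. The edgeR value was 0.057 without AAV-CTRL 3 and -1.79 without AAV-VEGF-C 2. With the experiment as a block it was -0.20 (edgeR adjusted p 0.892). With the filter on low counts removed, *Flt1* was called lower (-1.37, edgeR adjusted p 0.0168), the single call of any of the 10 genes in 16 other fits. In that fit 2.64% of genes were called lower.

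*Kdr* (chromosome 5, 75932827 to 75978458, minus strand) encodes VEGFR-2, the main signalling receptor for VEGF-A, and lies on the same chromosome as *Flt1*. It stood at 14.1, 27.1 and 74.5 TPM in AAV-CTRL, against 7.16, 13.4 and 9.28 TPM in AAV-VEGF-C. The ranges did not overlap, though AAV-CTRL 1 came within 1 TPM of AAV-VEGF-C 2. In TPM it was lowest in experiment 1 of each group, but scaled by TMM factors it stood at 148, 252 and 470 CPM against 229, 208 and 108 CPM, with AAV-VEGF-C 1 the highest treated library. Its log2 fold change was -0.68 (SE 0.49, edgeR adjusted p 0.4), negative in all 16 other fits, and -0.27 without AAV-CTRL 3.

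The sequence just before the start is shown for *Flt1* and *Kdr*, which had the widest spread of the 3 receptors among the AAV-CTRL libraries. These are the 250 bases before the RefSeq start, from GRCm38.p6, written 5′ to 3′ on the gene's own strand. Capitals mark the core letters GGAA of sites for ETS factors, a family that is active in endothelium, on either strand (TTCC on the other strand). The *Flt1* window is chr5:147726012-147726261 and the *Kdr* window is chr5:75978456-75978705, both on the minus strand.
Flt1: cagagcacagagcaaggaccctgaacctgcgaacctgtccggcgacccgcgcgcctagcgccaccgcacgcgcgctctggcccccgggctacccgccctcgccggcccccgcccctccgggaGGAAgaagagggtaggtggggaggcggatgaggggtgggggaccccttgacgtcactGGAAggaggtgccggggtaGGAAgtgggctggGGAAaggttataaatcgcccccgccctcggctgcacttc
Kdr: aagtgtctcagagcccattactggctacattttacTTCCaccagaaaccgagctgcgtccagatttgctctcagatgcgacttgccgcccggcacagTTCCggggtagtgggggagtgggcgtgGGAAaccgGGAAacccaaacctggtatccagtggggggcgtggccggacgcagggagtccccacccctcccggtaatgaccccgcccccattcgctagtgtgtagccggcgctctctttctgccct
Each window held 4 of these cores, and 33.4% of 32851 RefSeq promoter windows of the same length held at least 4. At least 1 was found in 93.4% of windows. The *Flt4* window, not shown because it lies within the annotated gene, held 2. Windows of the other VEGF genes held from 0 (*Pgf*) to 6 (1 of *Vegfa*), with 4 in *Nrp1*. A link between cores and spread was not tested. In *Flt1* all 4 read GGAA on the gene's strand, and in *Kdr* 2 did. A match of 4 letters is a description of the window and not a site.

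*Flt4* (chromosome 11, 49609263 to 49652739, plus strand) encodes VEGFR-3, the receptor for VEGF-C that marks lymphatic endothelium. It stood at 35.6, 19.3 and 26.0 TPM in AAV-CTRL, against 18.3, 13.1 and 9.80 TPM in AAV-VEGF-C. In TPM the ranges did not overlap, but scaled to the library total they did, at 438, 212 and 212 CPM against 547, 233 and 145 CPM. On both scales *Flt4* was highest in experiment 1 of each group. In TPM the lymphatic markers *Prox1*, *Ccl21a*, *Mmrn1*, *Reln*, *Stab2* and *Thy1* were too, with *Prox1* at 14.1 TPM in AAV-CTRL 1 and 9.62 TPM in AAV-VEGF-C 1. *Lyve1*, *Tek* and *Sox18* were instead lowest in experiment 1 of each group, with *Lyve1* at 16.0 and 9.61 TPM. *Pdpn*, *Pecam1* and *Cldn5* were neither highest nor lowest there in both groups. On the count scale the log2 fold change was 0.35 (SE 0.65, edgeR adjusted p 0.774). It was -0.64 without AAV-VEGF-C 1 and -0.058 without AAV-CTRL 3, and limma on log2(TPM + 1) gave -0.92. The AAV-CTRL vector encodes part of VEGFR-3, so vector reads and *Flt4* reads cannot be told apart in that group.

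*Flt4* took 69.5%, 27.5% and 12.6% of the summed TPM of the 3 receptors in AAV-CTRL 1, 2 and 3, and 62.1%, 30.2% and 33.6% in AAV-VEGF-C 1, 2 and 3. The 2 libraries of experiment 1 thus had *Flt4* as the leading receptor, with *Flt1* at 2.96% and 13.5% of the sum. In the other 4 libraries *Flt4* stood between 12.6% and 33.6% of the sum. The mean share was 36.5% ± 29.5 (SD, n = 3) in AAV-CTRL, against 42.0% ± 17.5 in AAV-VEGF-C, a difference of 5.48 percentage points (two-sided exact permutation p = 0.8). Within experiments the difference was -7.34, 2.72 and 21.1 percentage points. It was 22 without AAV-CTRL 1 and 0.982 without AAV-CTRL 2, and its sign turned without AAV-CTRL 3 (-6.49) and without AAV-VEGF-C 1 (-4.58). Without AAV-VEGF-C 2 or AAV-VEGF-C 3 it was 11.4 or 9.67.

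**Figure D2:**
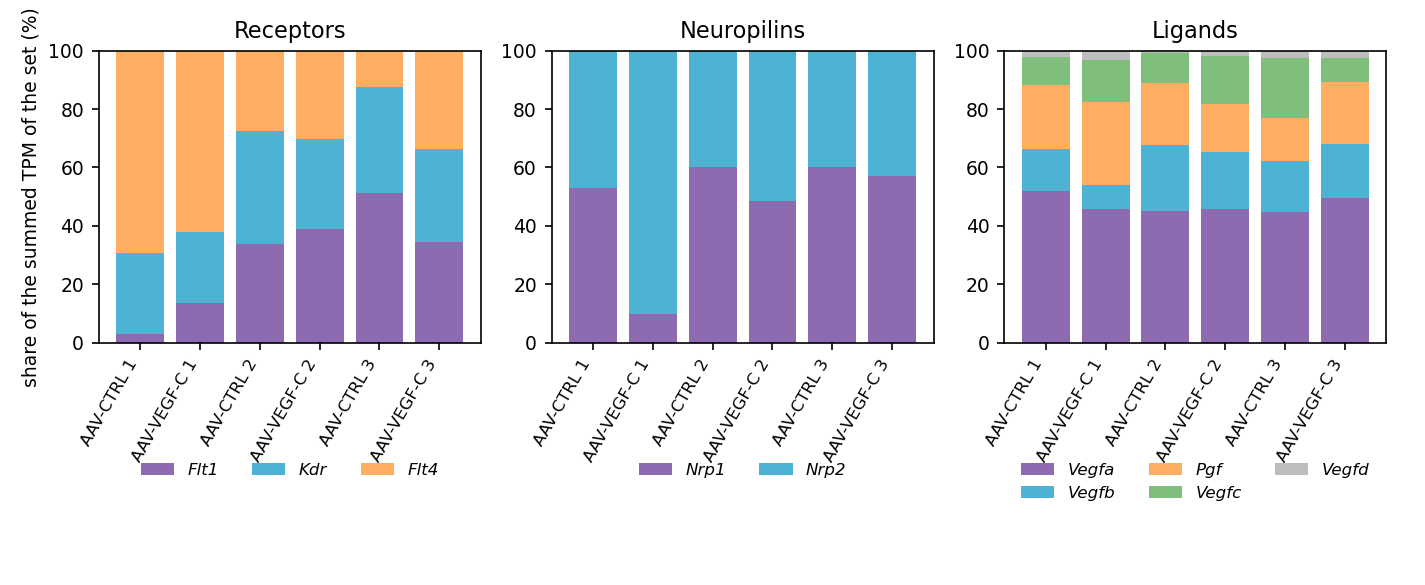
Share of summed TPM (%, stacked bars from 0 to 100) of each receptor, neuropilin and ligand in the 6 libraries, ordered by experiment. *Flt4* takes 69.5% and 62.1% of receptor TPM in the libraries of experiment 1, and *Nrp2* takes 90.2% of neuropilin TPM in AAV-VEGF-C 1.

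Markers of blood endothelium are set beside the receptors in TPM. The 12 blood endothelial markers, all with counts, summed to 142, 282 and 785 TPM in AAV-CTRL 1, 2 and 3 and to 57.2, 121 and 102 TPM in AAV-VEGF-C 1, 2 and 3. The order of the libraries by this sum was the order by *Kdr* TPM, and the order by *Flt1* TPM apart from AAV-CTRL 1. In TPM, AAV-VEGF-C lay below AAV-CTRL without overlap for 61.4% of tested genes with a mean TPM of 5 or more, so that part of the order is general. Scaled by TMM factors, *Kdr* was higher in AAV-VEGF-C 1 (229 CPM) than in AAV-CTRL 1 (148 CPM). Among the markers, *Vwf*, which encodes von Willebrand factor, stood at 1.35 TPM in AAV-CTRL 1 and 3.39 TPM in AAV-VEGF-C 1. In the other libraries *Vwf* stood at 23.4 to 208 TPM. The markers were lowest in experiment 1 of each group, apart from *Aqp1* and, in AAV-CTRL, *Esm1*. *Aqp1* stood at 50.2, 39.3 and 67.4 TPM in AAV-CTRL, against 19.96, 15.1 and 15.8 TPM in AAV-VEGF-C. *Esm1* stood at 9.23, 7.53 and 18.1 TPM in AAV-CTRL. The most abundant markers in AAV-CTRL 1 were *Plvap* (60.8 TPM) and *Aqp1*. The 12 lymphatic markers summed to 615, 513 and 623 TPM in AAV-CTRL, against 360, 206 and 174 TPM in AAV-VEGF-C. *Flt4* followed the order of this sum within AAV-VEGF-C but not within AAV-CTRL. *Ccl21a* was the largest part of the sum, at 352, 264 and 247 TPM in AAV-CTRL, against 211, 94.3 and 82.1 TPM in AAV-VEGF-C. *Pecam1*, *Tek*, *Cldn5* and *Sox18*, which blood endothelium also expresses, were all highest in AAV-CTRL 3. Without these 4, left out after their values were seen, the other 8 summed to 571, 430 and 395 TPM in AAV-CTRL 1, 2 and 3, against 334, 178 and 148 TPM in the treated libraries. *Flt4* again followed the order of the sum within AAV-VEGF-C only. The part of blood endothelial RNA in the receptor values was not tested.

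**Figure D3:**
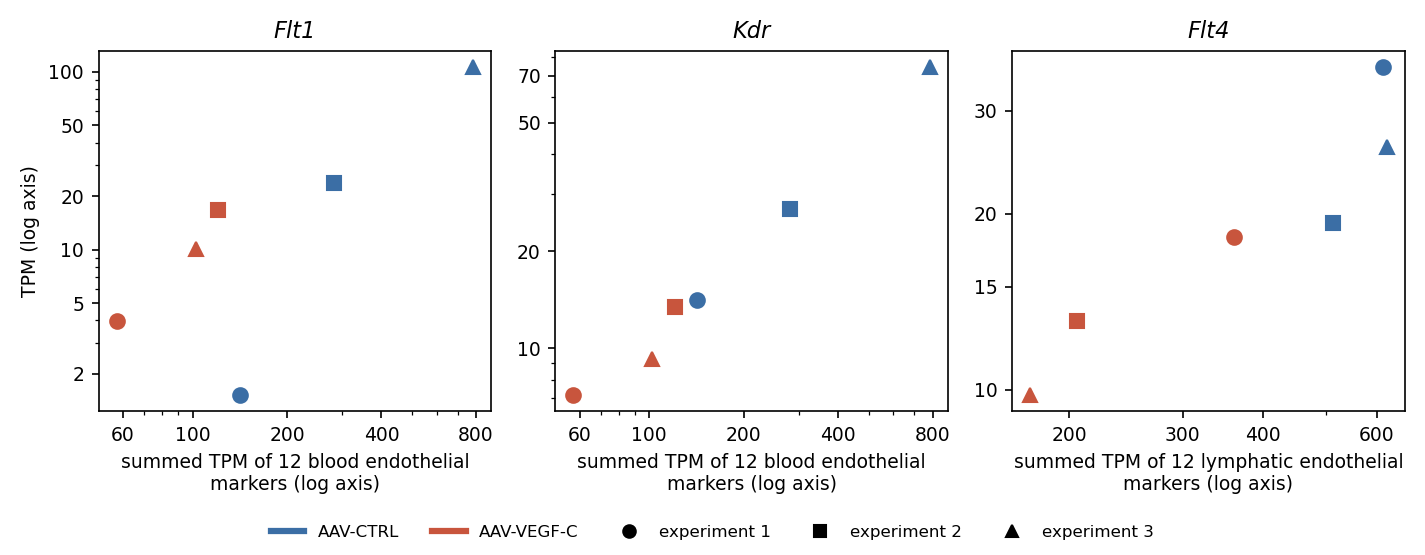
TPM of *Flt1* and *Kdr* against the summed TPM of 12 blood endothelial markers, and of *Flt4* against that of 12 lymphatic markers, all on log axes, with 1 point per library coloured by group and shaped by experiment. *Kdr* rises with the blood endothelial sum from 7.16 TPM in AAV-VEGF-C 1 to 74.5 TPM in AAV-CTRL 3, and *Flt1* in AAV-CTRL 1 (1.52 TPM) lies off that run.

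The genes of the surface proteins used in the sort did not pass the threshold either. *Lyve1*, *Pdpn* and *Pecam1* (podoplanin and CD31) had log2 fold changes of 0.01, -0.60 and -1.06, and *Ptprc*, which encodes the excluded CD45, of -0.16 (edgeR adjusted p 0.997, 0.415, 0.212 and 0.96). *Ptprc* stood at 0.119 and 0.337 TPM in experiment 1 and at 9.81 to 25.7 TPM in the other 4 libraries.

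*Nrp1* (chromosome 8, 128358604 to 128503363, plus strand), a co-receptor for VEGF-A and semaphorin 3A, stood at 36.7, 57.9 and 102 TPM in AAV-CTRL. It stood at 5.15, 30.05 and 24.6 TPM in AAV-VEGF-C. The ranges did not overlap, and AAV-VEGF-C 1 was the lowest library, on 43 counts. The log2 fold change was -0.79 (SE 0.41, edgeR adjusted p 0.255) and was negative in all 16 other fits, from -1.93 to -0.44, with adjusted p down to 0.0734. The span of *Nrp1* holds *Mir1903* on the same strand.

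*Nrp2* (chromosome 1, 62703285 to 62818695, plus strand), the co-receptor for VEGF-C on lymphatic endothelium, stood at 32.7, 38.1 and 67.7 TPM in AAV-CTRL. It stood at 47.2, 32.0 and 18.5 TPM in AAV-VEGF-C. The groups overlapped, and AAV-VEGF-C 1 was the high treated library here, where it was the low one for *Nrp1*. In counts scaled by TMM factors *Nrp2* stood at 342, 336 and 416 CPM against 1630, 506 and 229 CPM. The log2 fold change was 1.11 (SE 0.66, edgeR adjusted p 0.311), the highest of the 10 genes, and it was -0.058 without AAV-VEGF-C 1. Limma on log2(TPM + 1) gave -0.52. *Nrp2* overlaps the annotated genes Gm37121 on the same strand and Gm29083 on the other, so its counts are uncertain.

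*Nrp2* took 47.1%, 39.7% and 39.97% of the summed neuropilin TPM in AAV-CTRL 1, 2 and 3, and 90.2%, 51.6% and 42.9% in AAV-VEGF-C 1, 2 and 3. It was higher in the treated library of each experiment, by 43.1, 11.9 and 2.93 percentage points. The mean share was 42.2% ± 4.196 (SD, n = 3) against 61.6% ± 25.2, a difference of 19.3 percentage points (two-sided exact permutation p = 0.2). The size rested on AAV-VEGF-C 1, without which the difference was 5.01 percentage points. The ratio of *Nrp2* to *Nrp1* in TPM was 9.16 in that library and 0.658 to 1.07 in the other 5.

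**Figure D4:**
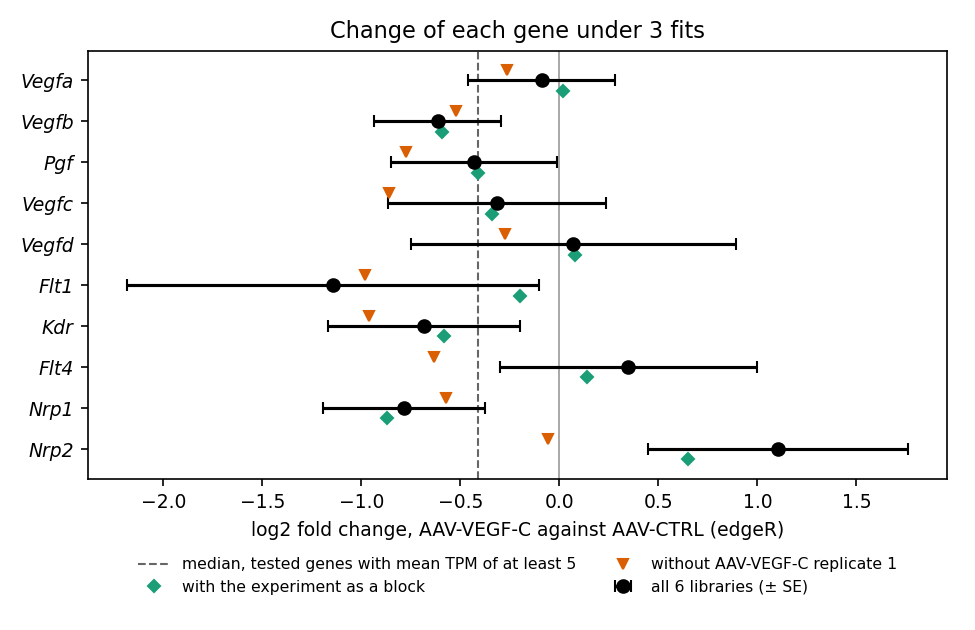
Log2 fold change of AAV-VEGF-C against AAV-CTRL for the 10 genes, with all 6 libraries (black, ± SE), with the experiment as a block (green) and without AAV-VEGF-C 1 (orange). The dashed line is the median of tested genes with a mean TPM of 5 or more (-0.41), and *Nrp2* and *Flt4* move from 1.11 and 0.35 to -0.058 and -0.64 without AAV-VEGF-C 1.

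Genes around the receptors were then counted from 2 lists. Of 23 receptor partners, which include phosphatases, integrins and endocytic adaptors, 0 were called higher and 1 lower (edgeR adjusted p under 0.05), 3 had an unadjusted p under 0.05, and the median log2 fold change was -0.32. Over all tested genes 0.659% were called lower and 28.1% had an unadjusted p under 0.05, and the median at a mean TPM of 5 or more was -0.41. The gene called lower was *Itgb1*, the β1 chain of integrins that signal with VEGFR-3. It went from 56.3, 64.7 and 117 TPM in AAV-CTRL to 9.81, 18.1 and 23.3 TPM in AAV-VEGF-C, without overlap (log2 fold change -1.10, SE 0.26, edgeR adjusted p 0.0358). The call was lost without any 1 of the 6 libraries, with edgeR adjusted p from 0.0568 to 0.105. It was also lost with the library total in place of TMM, with scaling on the 2000 most abundant genes, with the filter at a mean TPM of 5 and after drawing down (edgeR adjusted p from 0.0596 to 0.481). It was kept under DESeq2 (-1.17, adjusted p 0.00234), with the experiment as a block (edgeR adjusted p 0.0303) and with no filter (edgeR adjusted p 0.0182). DESeq2 size factors in place of TMM (edgeR adjusted p 0.0399) and both limma fits (adjusted p 0.0433 and 0.0438) kept it too. *Ptprb*, a phosphatase of endothelial receptors, had the most negative value among partners with a mean TPM of 5 or more (-1.51, SE 0.79, edgeR adjusted p 0.254) and, like *Flt1* and *Kdr*, its highest TPM in AAV-CTRL 3 (95.3). *Rab11a*, a recycling GTPase, was at -1.08 (edgeR adjusted p 0.0927). The adaptor *Epn1*, the ubiquitin ligase *Cbl* and the integrin chain *Itga9* were at -0.00, 0.10 and 0.20 (edgeR adjusted p 1.0, 0.891 and 0.737).

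Of 46 transducers that act below the receptors, 1 was called higher and 0 lower, 10 had an unadjusted p under 0.05, and the median log2 fold change was -0.45 (over all tested genes 10.5% called higher, 28.1% at an unadjusted p under 0.05, and -0.41 at a mean TPM of 5 or more). *Sh2d2a*, which encodes an adaptor that binds VEGFR-2 and is also used by T cells, was the gene called higher, on low levels. It stood at 0.018, 0.349 and 0.071 TPM in AAV-CTRL, against 1.54, 0.731 and 1.77 TPM in AAV-VEGF-C (log2 fold change 4.34, SE 1.1, edgeR adjusted p 0.0475). The T-cell gene *Cd3d* was also higher in each treated library than in any control library (1.08 to 5.39 TPM against 0.509 to 0.664). *Cd3e*, also a T-cell gene, overlapped between the groups (0.562 to 1.01 TPM against 0.0 to 0.594). The part of T cells in the *Sh2d2a* call was not tested. This call too was lost without any 1 of the 6 libraries (adjusted p from 0.0739 to 0.121) and with DESeq2 size factors in place of TMM (edgeR adjusted p 0.0526). It was kept under DESeq2 (4.33, adjusted p 0.00115), with the experiment as a block (edgeR adjusted p 0.02) and in both limma fits (adjusted p 0.0305 and 0.0335). The library total alone, scaling on the 2000 most abundant genes and no filter kept it too (edgeR adjusted p 0.0243, 0.0283 and 3.1e-07). Rises in genes of low level were common (10.5% of all genes called higher, but 1.69% of those with a mean TPM of 5 or more). The adaptor *Nck1*, the PI3-kinase subunit *Pik3r1* and the GTPase *Rhoa* had the most negative values among those with a mean TPM of 5 or more, at -1.18, -1.09 and -1.03 (edgeR adjusted p 0.121, 0.0788 and 0.0539). *Rhoa* was called lower with the experiment as a block (-1.05, edgeR adjusted p 0.0383) and under DESeq2 (-1.08, adjusted p 0.0107), and in the limma fit on log2(TPM + 1) (-2.43, adjusted p 0.0367). *Pik3r1* was called lower under DESeq2 too (-1.15, adjusted p 0.0217). With no filter *Nck1*, *Pik3r1* and *Rhoa* were all called lower (edgeR adjusted p 0.0278, 0.0211 and 0.0257). The highest values at that level were in *Vav2*, *Hras* and *Pxn*, at 0.14, 0.13 and 0.09 (edgeR adjusted p 0.849, 0.864 and 0.895).

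The genes whose pattern over the 6 libraries was most like that of a VEGF gene were sought among 6397 genes, by the root mean square difference of centred log2(TPM + 1). For *Flt4* these were Ccl21d, a copy of the lymphatic chemokine CCL21 that shares reads with near-identical copies, *Unc5b* and *Eif2ak3* (0.186, 0.186 and 0.193, where the median gene was at 0.861). *Kdr* was most like *Apold1*, *Pecam1* and *Pttg1* (0.189, 0.199 and 0.215, median 0.711). *Nrp2* was most like *Snx12*, *Nrip1* and *Fyco1* (0.137, 0.163 and 0.186, median 0.97). *Vegfc* was most like *Ets1*, *Tmx2* and *Tmem204* (0.11, 0.128 and 0.147, median 0.662). The CD31 gene *Pecam1*, for example, stood at 20.9, 46.1 and 121 TPM in AAV-CTRL 1, 2 and 3 and lay between 12.2 and 16.1 TPM in AAV-VEGF-C. The nearest of 6397 genes lie under the median gene by selection, so the medians do not show how close a match is.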

How the data were processed

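RNA of sorted dural LECs was measured in 6 libraries made with a stranded total RNA kit for low input. Per gene, the authors deposited estimated counts without scaling between libraries, and TPM values. Their processing notes name mm10, FastQC, Trimmomatic, DRAGEN and Picard; versions, the counting program and the use of strand or molecular identifiers are not given in the sources used here. Gene identifiers equal GENCODE M21 (GRCm38) in 98.1% of cases with version, and positions came from it.

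Groups came from the labels. Estimated counts were rounded, genes kept by filterByExpr, libraries scaled by TMM and groups compared by edgeR's quasi-likelihood test (4.0.16, R 4.3.3) with Benjamini-Hochberg adjustment at 0.05 over all tested genes. DESeq2 (1.42.0, the study's test) and limma (3.58.1) on log2(TPM + 1) were alternatives, with other scalings, filters, drawn-down counts and left-out libraries. Fold changes on log2(TPM + 1) understate changes of low genes. Within-library shares were compared by exact permutation tests. CPM are counts scaled to the library total, with 95% Wilson intervals, and the floor is 3 counts. All 10 genes are named; from each list, called genes, the 3 highest and the 3 lowest among genes with a mean TPM of 5 or more are. The members and lists were chosen with earlier results of these data known. Scripts were tested on simulated data.

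Replicate numbers mark repeats of the experiment per the labels. Deviations from group means of same-numbered libraries correlated across genes at 0.369, 0.28 and 0.155 for numbers 1, 2 and 3. Between different numbers the highest value was 0.216, for AAV-CTRL 3 with AAV-VEGF-C 2, which is above the 0.155 of number 3. The pairing of number 3 thus rests on the labels alone. Libraries of a group all differed by more than sampling noise (lowest chi-square per df 7.7). The p-values measure the spread between libraries of a group, each a pool of animals from its own experiment. The main fit and the exact permutation tests did not use the pairing, so differences between experiments are part of that spread.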

Additional observations from a re-analysis of the deposited data

How the results depend on the processing

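Under 16 other fits the 10 VEGF genes were recomputed 158 times. In 135 of these the direction and the side of the threshold stayed, in 22 the direction turned, and in 1 a call was gained (*Flt1* with no filter, so that 1 gene was called lower). The replicate block changed no call of these genes. Of 270 values for the other named genes, 190 stayed, 52 turned, 11 gained and 17 lost a call. Depth limits *Vegfd*, *Vegfb* and *Vegfc* most, with counts of 10 or fewer in AAV-VEGF-C 1. The cause of the changes below was not tested.

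Genes called over the whole table depended on the fit, from 1835 higher and 115 lower genes. With no filter there were 9382 higher and 1175 lower genes, DESeq2 gave 5659 and 501, and limma on log2(TPM + 1) gave 1112 and 434. Filtering at a mean TPM of 5 or more left 9 and 0 (1009 at an unadjusted p under 0.05), and drawing down left 14 and 0 (799), with fewer genes tested in both. Lower genes alone moved with the library total in place of TMM (53), with scaling on the 2000 most abundant genes (8), with the replicate block (362) and with a threshold of 0.1 (578). Leaving out 1 library gave from 0 to 1771 higher and from 0 to 48 lower genes, with 0 of both without AAV-CTRL replicate 2 or AAV-CTRL replicate 3 (5071 and 4627 at an unadjusted p under 0.05), 8 and 0 without AAV-VEGF-C replicate 2, and 320 and 8 without AAV-VEGF-C replicate 3. Without AAV-VEGF-C replicate 1, 43 were lower. Higher genes made up 94.1% of calls, and 71.9% in the limma fit on log2(TPM + 1). The median of shared genes moved by -0.10 with the library total, by 0.35 with scaling on the 2000 most abundant genes, and by -0.91 and -1.12 in the limma fits with 1 and 0.1 TPM added.

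Log2 fold changes that turned were these. Scaled on the 2000 most abundant genes, *Vegfa* was at 0.25, *Vegfc* at 0.044, *Ptprc* at 0.21 and *Epn1* at 0.35. Filtered at a mean TPM of 5 or more, *Vegfa* was at 0.29, *Vegfc* at 0.069, *Ptprc* at 0.10 and *Epn1* at 0.31. After drawing down, *Vegfa* was at 0.39, *Ptprc* at 0.27 and *Epn1* at 0.28, and under DESeq2 size factors *Epn1* was at 0.026. With the replicate block, *Vegfa* was at 0.02 and *Lyve1* at -0.018. With the library total alone, *Vegfd* was at -0.032, *Lyve1* at -0.17, *Cbl* at -0.058, *Pxn* at -0.066 and *Hras* at -0.0026. With no filter, *Vegfd* was at -0.16, *Lyve1* at -0.31, *Cbl* at -0.16, *Itga9* at -0.08, *Pxn* at -0.19, *Hras* at -0.15 and *Vav2* at -0.10. DESeq2 put *Lyve1* at -0.062. Limma on log2(TPM + 1) put *Vegfd*, *Flt4* and *Nrp2* at -0.48, -0.92 and -0.52, and *Lyve1*, *Cbl*, *Itga9*, *Pxn*, *Hras* and *Vav2* at -1.06, -0.86, -1.18, -0.90, -1.20 and -0.78. On log2(TPM + 0.1) they were at -0.84, -0.97 and -0.53, and at -1.12, -1.0, -1.31, -0.93, -1.39 and -0.93.

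Leaving out 1 library put *Vegfa* between -0.37 and 0.32, *Vegfd* between -0.35 and 0.45, *Flt1* between -1.79 and 0.057, *Flt4* between -0.64 and 0.83 and *Nrp2* between -0.058 and 1.45. *Lyve1* lay between -0.55 and 0.47, *Ptprc* between -1.06 and 0.59, *Epn1* between -0.58 and 0.28, *Cbl* between -0.21 and 0.25, *Itga9* between -0.12 and 0.34, *Pxn* between -0.17 and 0.20, *Hras* between -0.21 and 0.30, and *Vav2* between -0.19 and 0.51.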
